A study of Mus musculus with 4 samples.

Results

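Messenger RNA of 10 transcription factor genes was examined in mouse CD4+ T cells given progesterone: the BATF family genes Batf and Batf3, the interferon regulatory factor genes Irf4 and Irf8, the AP-1 genes Jun, Junb, Jund and Fosl2, and the repressor genes Prdm1 (BLIMP1) and Bcl6. The genes were taken by symbol from the platform annotation, and every probe set that the annotation gives to a single gene was used, which gave 16 probe sets of the 34945 with 1 gene symbol and the 45101 on the array. The cells began as naive CD4+ T cells of the spleen and of mesenteric and peripheral lymph nodes and were cultured for 7 days in medium with 10% serum and the T cell mitogen concanavalin A at 2.5 ug/ml. In 2 samples the cells received human TGFb1 at 1 ng/ml plus progesterone at 2000 ng/ml, and in 2 samples the same TGFb1 alone. Both groups therefore share the mitogen and TGFb1, and no sample lacked them. The source of the replicates (separate animals or cultures, or one) is not labelled, nor are strain, sex and age, so the p-values rest on a spread between arrays that may be technical.

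BATF proteins are AP-1 factors that pair with JUN proteins and bind DNA together with IRF4 or IRF8 at composite elements. In helper T cells BATF and IRF4 are induced through the T cell receptor and are needed for effector, Th17, follicular helper and mature regulatory programmes. BLIMP1 and BCL6 are repressors that act against each other: BCL6 drives the follicular helper state, and BLIMP1 drives terminal effector cells and interleukin 10 production.

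Batf, Irf4 and Prdm1 fell with progesterone, by 0.71, 0.51 and 0.79 on the log2 scale, and no member rose in the fit of all 4 arrays. Of the 14 member probe sets above the level filter, 3 were called lower (limma, adjusted p below 0.05), or 3 of 9 genes, and 0 higher. Over all 22518 probe sets tested 6.14% were called, 3.74% lower and 2.4% higher. The members were chosen with earlier results of these data known, so their shares against all probe sets are a description only. At an unadjusted limma p below 0.05, 8 of the 14 were lower (10.4% of all) and 0 higher (11% of all). The median difference of the 14 was -0.42, against 0.027 over all probe sets tested, and 11 of the 14 differences were below 0, against 46.3% of all. Groups did not overlap after normalisation, with progesterone below, for 8 of the 14 (24.1% of all), and with progesterone above for 1 (29.2% of all); in the deposited signals the counts were 10 (37.9% of all) and 0 (13.9% of all). The 3 calls were lost with either progesterone array left out, and fewer probe sets were then called over all as well. Without progesterone replicate 1 and 2 the differences were -0.65 and -0.78 for Batf, -0.50 and -0.53 for Irf4, and -0.86 and -0.76 for Prdm1. Without progesterone replicate 1, 6 of the 14 had an unadjusted p below 0.05 (3725 of 22518 over all), and without replicate 2, 4 had (2759 over all). Without TGFb1 replicate 1 Batf, Irf4 and both Jun probe sets passed and Prdm1 did not (5.86% of all probe sets called). Without TGFb1 replicate 2 Batf, Irf4 and Prdm1 passed as lower and Jund as higher (7.37% of all called). Differences are TGFb1 plus progesterone minus TGFb1 alone in log2(signal + 16) after quantile normalisation, with the standard error of the fit and n = 2 arrays per group; this scale understates the change of dim probe sets.

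**Figure D1:**
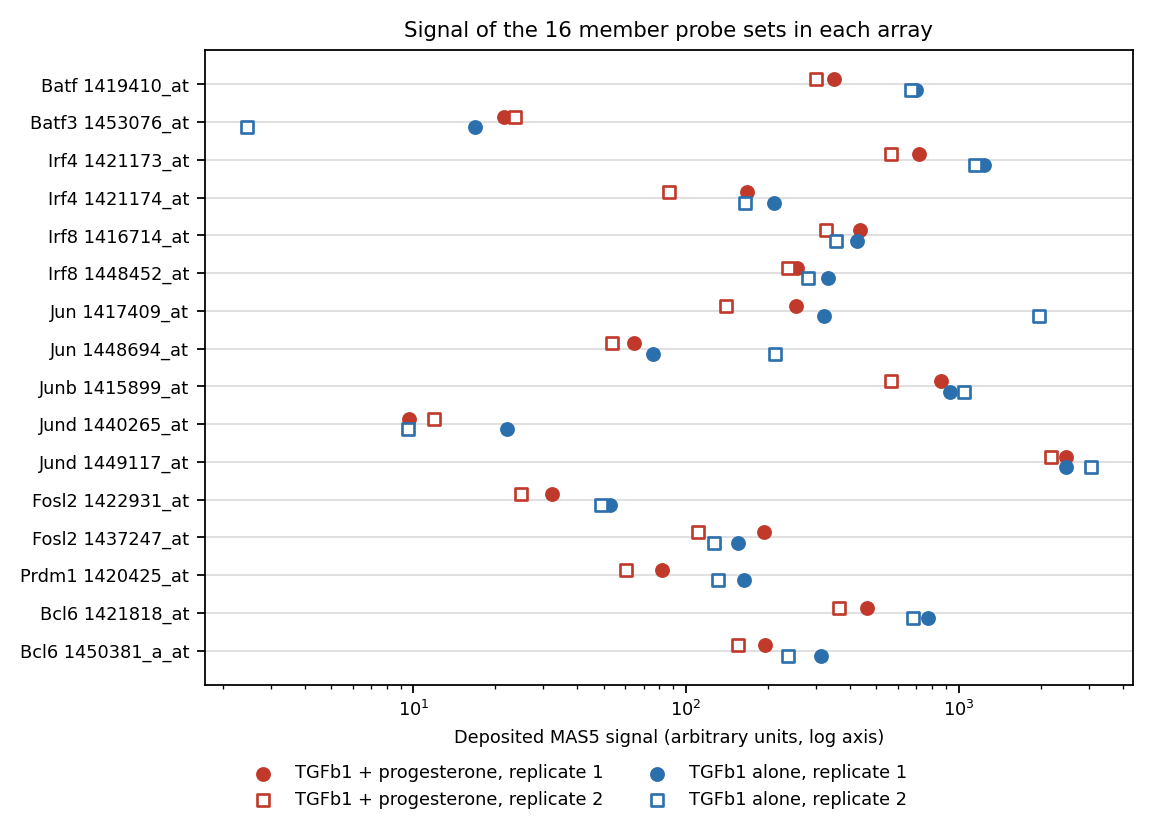
Deposited MAS5 signal (arbitrary units, log axis) of the 16 member probe sets, with a point for each of the 2 TGFb1 plus progesterone arrays (red) and the 2 TGFb1 alone arrays (blue). Batf, Prdm1 and the brighter probe sets of Irf4 and Bcl6 have both red points left of both blue points, and the brighter Jun probe set has a single blue point far to the right, at 1974.

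The arrays also differed in other ways. Trimmed mean signals were 138.5 and 108.3 with TGFb1 plus progesterone, against 155.4 and 146.2 with TGFb1 alone, and without quantile normalisation the median difference of all tested probe sets was -0.16 (as deposited) or -0.28 (median centring of each array). Xist, expressed in female cells, had deposited signals of 1389.9 and 825 with TGFb1 plus progesterone, against 9.52 and 9.70 with TGFb1 alone, and the Y-linked gene Eif2s3y had 4.25 and 0.49, against 689 and 727. The sex of the cells and the treatment cannot be told apart here. Of 7 proliferation markers measured, 6 fell (median -2.61). T cell markers had no call among 11 (limma; 1 higher and 4 lower at an unadjusted p below 0.05), and their summed normalised signal was 34907 and 35506 with TGFb1 plus progesterone, against 34955 and 37008 with TGFb1 alone. Monocyte, macrophage and neutrophil markers summed to 1220.2 and 1632 with progesterone, against 596 and 235 without, with 2 of 9 called higher, among them Lyz2 (2.69). Mast cell, basophil and platelet markers summed to 2049 and 2584, against 1690.2 and 1192, with 4 of 10 called higher, among them the platelet gene Pf4 (3.12). The brightest gene of this list, Cpa3, went the other way and did not pass (-0.33, limma adjusted p = 0.393). Its deposited signals were 540 and 548 with TGFb1 plus progesterone, against 1147 and 700 with TGFb1 alone. Dendritic cell markers had 1 of 4 called, the integrin gene Itgae, which T cells also express, while Xcr1, Flt3, Siglech, Cd209a and Cadm1 lay under the level filter. Of 6 B cell markers above the filter only Ighm was called, lower (-0.92), and Ms4a1, Pax5, Ebf1, Jchain and Sdc1 lay under it. The median of the 6 was 0.29, and Cd79b was at 0.16 and did not pass. Of 6 CD8 T cell and NK cell markers 1 was called, Klrd1 (-0.67), and this list summed to 686 and 638, against 1039.5 and 1036. The part of these differences in the results below was not tested, and in bulk RNA fewer cells of a type and less RNA per cell cannot be told apart.

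Batf encodes the AP-1 partner that T cells need to become Th17 and follicular helper cells. Its probe set, 1419410_at, had deposited signals of 349.6 and 299.6 in the TGFb1 plus progesterone arrays, against 696 and 668 in the TGFb1 alone arrays. Both progesterone arrays lay well below both TGFb1 arrays, and the 2 arrays of each group lay close together. After normalisation the signals were 349 and 384 with progesterone, against 600.3 and 617 without, a difference of -0.71 ± 0.12 (95% interval -0.98 to -0.43, adjusted p = 0.0138), or 1.63-fold lower. Batf kept its call without either TGFb1 array (adjusted p = 0.0197 and 0.0223) and lost it without progesterone replicate 1 (-0.65, adjusted p = 0.134) or replicate 2 (-0.78, adjusted p = 0.108). Batf3, the paralogue needed for cross-presenting dendritic cells, was dim: 1453076_at had 21.6 and 23.6 with progesterone, against 16.8 and 2.45 with TGFb1 alone. It lay under the level filter and was not tested in the fit; without the filter its difference was 0.54 (adjusted p = 0.574), and nothing can be said of it at this signal.

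Irf4 encodes the T cell receptor-induced partner of BATF, whose amount scales with receptor signal strength. Its brighter probe set, 1421173_at, had 716 and 565 with TGFb1 plus progesterone, against 1244 and 1149 with TGFb1 alone. The groups did not overlap, and after normalisation the arrays within each group were nearly equal, at 724 and 742 with progesterone and 1049 and 1056 without. The difference was -0.51 ± 0.10 (95% interval -0.74 to -0.28, adjusted p = 0.0227), 1.43-fold lower. It passed without either TGFb1 array (adjusted p = 0.0357 and 0.0318) but not without progesterone replicate 1 (-0.50, adjusted p = 0.175) or replicate 2 (-0.53, adjusted p = 0.203). The dimmer Irf4 probe set, 1421174_at, had 168 and 87.0 with progesterone, against 211 and 164 with TGFb1 alone. Its groups overlapped by a small margin, with progesterone replicate 1 just above TGFb1 replicate 2, and it did not pass (-0.37 ± 0.22, adjusted p = 0.382). Both probe sets therefore gave a difference below 0, and the larger spread was between the progesterone arrays of the dimmer one.

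Irf8, the relative of Irf4 that is best known from myeloid, dendritic and B cells and also restrains Th17 differentiation in mouse T cells, gave no call. Probe set 1416714_at had 434 and 326 with TGFb1 plus progesterone, against 425 and 356 with TGFb1 alone, with the groups overlapping. Probe set 1448452_at had 256 and 237, against 331 and 281, with progesterone below. After normalisation the first was at 0.27 ± 0.13 (95% interval -0.029 to 0.56, adjusted p = 0.276) and the second at -0.0075 ± 0.15 (-0.35 to 0.33, adjusted p = 0.984). The first turned below 0 with the values as deposited (-0.047) and with median centring (-0.17). The difference in response between Irf4 and Irf8 was not tested.

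To show the regulatory sequence of the genes that fell, the RefSeq promoter windows of Batf (chr12:85686470-85686769, plus strand), Irf4 (chr13:30748983-30749282, plus strand) and Prdm1 (chr10:44458699-44458998, minus strand) are given in build GRCm38.p6, from 250 bases before to 50 bases after the annotated start. Capitals mark a match to any of 8 motifs searched on both strands.
Batf: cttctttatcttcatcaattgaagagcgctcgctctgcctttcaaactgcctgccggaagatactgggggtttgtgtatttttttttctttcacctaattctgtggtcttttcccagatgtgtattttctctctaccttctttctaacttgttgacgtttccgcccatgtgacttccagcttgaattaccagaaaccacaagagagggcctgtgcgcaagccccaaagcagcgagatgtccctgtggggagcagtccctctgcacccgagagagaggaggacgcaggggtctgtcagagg
Irf4: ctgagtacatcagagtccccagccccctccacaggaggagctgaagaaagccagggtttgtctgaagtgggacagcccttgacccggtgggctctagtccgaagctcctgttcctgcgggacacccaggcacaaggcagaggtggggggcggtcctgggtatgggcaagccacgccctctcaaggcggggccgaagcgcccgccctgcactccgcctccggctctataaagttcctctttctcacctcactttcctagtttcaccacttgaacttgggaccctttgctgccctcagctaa
Prdm1: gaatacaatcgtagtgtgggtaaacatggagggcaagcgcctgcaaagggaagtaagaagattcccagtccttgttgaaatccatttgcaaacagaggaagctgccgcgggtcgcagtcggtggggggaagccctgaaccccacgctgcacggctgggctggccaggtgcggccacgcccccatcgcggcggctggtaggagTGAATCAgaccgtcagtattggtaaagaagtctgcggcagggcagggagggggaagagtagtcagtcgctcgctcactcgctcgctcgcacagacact
The motifs were the AP-1 site TGANTCA (in 7.79% of 32544 promoter windows of this length), the cyclic AMP element TGACGTCA (1.8%), the AP-1 variant TGACATCA (3.37%), the IRF element, GAAA and GAAA with 2 bases between (3.45%), the steroid receptor element, GNACA and TGTNC with 3 bases between (0.476%), and the single-arm receptor motif AGAACA (18.9%), the BCL6 and STAT motif TTCNNNGAA (8.33%) and the NF-kB motif, GGGA and TTTCC with 1 base between (0.415%). Only Prdm1 of these 3 windows held a match, to the AP-1 motif (TGAATCA), 48 bases before the start. Among all 10 members, each with at least 1 window, the full steroid receptor element was matched only in Jund (GTACAGGGTGTCC, 31 bases before the start, chr8:70697489-70697788, plus strand) and the IRF element only in Fosl2. A match is a description of letters, and these windows leave out distal enhancers.

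The AP-1 genes gave no call, but Jun had the widest spread of all members. JUN, JUNB and JUND are the partners with which BATF and FOS family proteins bind AP-1 sites, and Jun itself is an immediate early gene. Its brighter probe set, 1417409_at, had 254 and 141 with TGFb1 plus progesterone, against 320.2 and 1974 with TGFb1 alone. The second, 1448694_at, had 64.6 and 53.6, against 76.0 and 212. In both probe sets a single array, TGFb1 replicate 2, stood apart, 6.16-fold and 2.79-fold above TGFb1 replicate 1 in deposited signal, whereas TGFb1 replicate 1 lay near the progesterone arrays. The differences were -1.72 ± 0.68 (adjusted p = 0.196) and -0.86 ± 0.37 (adjusted p = 0.227). Without TGFb1 replicate 2 they were -0.41 (adjusted p = 0.325) and -0.21 (adjusted p = 0.679), and without TGFb1 replicate 1 they were -2.97 (adjusted p = 8.5e-05) and -1.47 (adjusted p = 0.00508). The Jun values are thus decided by which TGFb1 array is used.

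The Jun promoter (chr4:95052173-95052472, minus strand, GRCm38.p6) is shown because it carries the variant AP-1 site through which JUN is known to act on its own gene, in capitals 45 bases before the start.
Jun: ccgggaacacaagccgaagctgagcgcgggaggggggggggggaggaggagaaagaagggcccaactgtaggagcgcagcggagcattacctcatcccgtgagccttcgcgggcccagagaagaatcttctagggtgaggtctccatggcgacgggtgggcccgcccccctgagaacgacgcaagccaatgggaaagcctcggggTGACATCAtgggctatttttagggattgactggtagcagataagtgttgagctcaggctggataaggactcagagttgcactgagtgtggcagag
Its dimerisation partner Fos showed the same array apart: 1423100_at had 65.4 and 63.2 with TGFb1 plus progesterone, against 125 and 949 with TGFb1 alone (-2.06 ± 0.71, adjusted p = 0.145). Ranked over the 22518 probe sets tested by the log2 excess of TGFb1 replicate 2 over replicate 1, Fos was at place 4 (2.75) and Jun at place 5 (2.60). A list of 18 immediate early genes, Fos and Jun among them, was written after these values were seen. In normalised signal 13 of the 16 genes above the filter were highest in TGFb1 replicate 2 (81.2%), against 24.3% of all genes. They included Dusp1, a phosphatase of the MAP kinases (deposited 430.0 and 1478 in the TGFb1 arrays), and Ppp1r15a, a stress-induced phosphatase subunit (355 and 1391). For others the excess was small: Nr4a3 had 454 and 477 after normalisation but 520 and 514 as deposited. Its normalised signals with progesterone were 192 and 177, and it was called lower (-1.26, limma adjusted p = 0.00216). Nr4a1 was also called lower (-0.68, limma adjusted p = 0.018), against 4.79% of all genes. For both genes each TGFb1 array lay above each progesterone array. Btg2 and Egr2 were highest in progesterone replicate 2, and Ier3 in TGFb1 replicate 1. Btg2 (0.57, limma adjusted p = 0.0407) and Egr2 (1.03, limma adjusted p = 0.0304) were called higher, against 2.69% of all genes. The list was chosen on these data and is a description only; its part in the Jun difference was not tested.

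**Figure D2:**
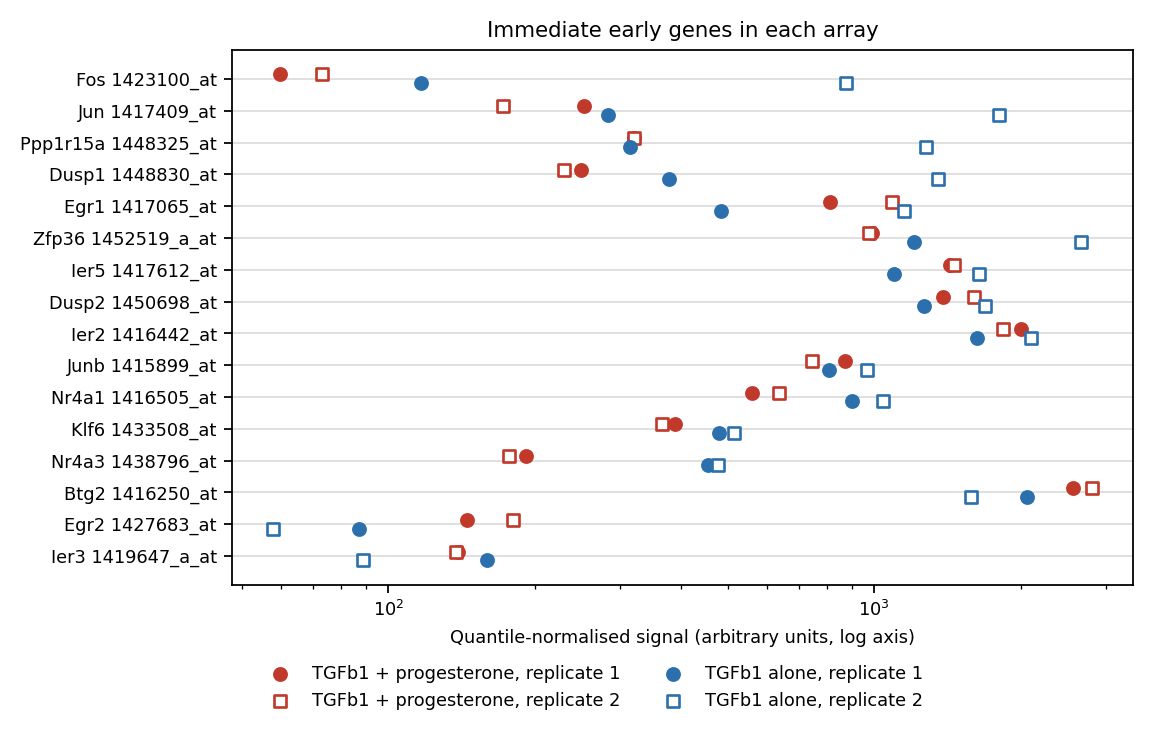
Quantile-normalised signal (arbitrary units, log axis) of 16 immediate early genes, 1 probe set each, in the 2 TGFb1 plus progesterone arrays (red) and the 2 TGFb1 alone arrays (blue), ordered by the log2 excess of TGFb1 replicate 2 over replicate 1. Fos, Jun, Ppp1r15a, Dusp1 and Zfp36 have TGFb1 replicate 2 (open blue square) far right of the other 3 arrays.

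Junb, the JUN protein that pairs with BATF in Th17 cells, had 860.4 and 567 with TGFb1 plus progesterone, against 934 and 1043 with TGFb1 alone (1415899_at). The deposited groups did not overlap, but after normalisation they did, at 871 and 744 with progesterone and 807 and 964 without. The difference was -0.13 ± 0.13 (95% interval -0.43 to 0.17, adjusted p = 0.613), and it depended on the scaling: it was -0.49 as deposited (adjusted p = 0.31) and -0.61 with median centring, where it passed (adjusted p = 0.0249). Jund, the JUN protein of resting cells, was bright on 1449117_at, with 2478 and 2176.5, against 2469.7 and 3052. Its groups overlapped and it was at 0.20 ± 0.15 (-0.14 to 0.54, adjusted p = 0.482), but it was below 0 as deposited (-0.24) and with median centring (-0.36), and without TGFb1 replicate 2 it passed as a rise (0.43, adjusted p = 0.0417). The second Jund probe set, 1440265_at, was dim, with 9.67 and 11.95, against 22.0 and 9.58, and lay under the level filter.

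Fosl2 encodes FRA2, a FOS family protein that limits parts of the Th17 programme in mouse T cells. Its 2 probe sets had opposite signs. The dimmer, 1422931_at, had 32.3 and 24.8 with TGFb1 plus progesterone, against 52.7 and 48.9 with TGFb1 alone. The brighter, 1437247_at, had 193 and 111, against 155 and 127. The groups of the dimmer one did not overlap, and those of the brighter one did. Neither passed, at -0.65 ± 0.22 (adjusted p = 0.146) and 0.23 ± 0.20 (adjusted p = 0.534), so Fosl2 has no agreed direction here.

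Prdm1 encodes BLIMP1, which in T cells promotes interleukin 10 and effector regulatory cells and represses Bcl6. Its probe set, 1420425_at, had 81.4 and 60.2 with TGFb1 plus progesterone, against 163 and 132 with TGFb1 alone. Both progesterone arrays lay below both TGFb1 arrays. The difference was -0.79 ± 0.18 (95% interval -1.20 to -0.39, adjusted p = 0.0386), 1.73-fold lower. Among the 3 members called Prdm1 had the highest adjusted p. It kept its call without TGFb1 replicate 2 (adjusted p = 0.0436) and lost it without replicate 1 (-0.67, adjusted p = 0.132). It also lost it without progesterone replicate 1 (-0.86, adjusted p = 0.136) and without replicate 2 (-0.76, adjusted p = 0.237).

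Bcl6, the follicular helper factor that BLIMP1 represses, was not higher where Prdm1 fell. Probe set 1421818_at had 461 and 366 with TGFb1 plus progesterone, against 774 and 683 with TGFb1 alone. Probe set 1450381_a_at had 194 and 156, against 312 and 238. In both, each progesterone array lay below each TGFb1 array. The first was at -0.46 ± 0.11 (95% interval -0.72 to -0.20), just short of the threshold with a limma adjusted p = 0.0529 over all probe sets. It was called in 8 of 16 alternatives. Among these was the looser threshold of 0.1, where its adjusted p was still 0.0529. The adjusted p was 0.0387 with 1 probe set per gene, 0.0964 with no level filter, 0.149 with no intensity trend, 0.256 and 0.334 without progesterone replicate 1 and 2, and 0.102 and 0.0544 without TGFb1 replicate 1 and 2. The second was at -0.36 ± 0.15 (adjusted p = 0.231). The intervals of Prdm1 and of the brighter Bcl6 probe set overlap, and the change of one relative to the other was not tested. The 2 RefSeq windows of Bcl6, at chr16:23988803-23989102 and chr16:23981234-23981533 (minus strand, GRCm38.p6), are shown because BCL6 is known to repress its own gene. Capitals mark TTCNNNGAA, found once in the first and at 3 places in the second, where one of them overlaps a match, also in capitals, to the single-arm receptor motif (TGTTCT).
Bcl6 first start: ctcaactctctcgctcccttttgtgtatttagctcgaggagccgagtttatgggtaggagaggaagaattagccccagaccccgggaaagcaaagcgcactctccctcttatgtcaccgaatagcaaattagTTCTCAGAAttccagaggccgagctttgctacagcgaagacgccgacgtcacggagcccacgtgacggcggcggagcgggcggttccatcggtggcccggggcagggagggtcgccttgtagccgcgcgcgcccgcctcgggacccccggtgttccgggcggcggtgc
Bcl6 second start: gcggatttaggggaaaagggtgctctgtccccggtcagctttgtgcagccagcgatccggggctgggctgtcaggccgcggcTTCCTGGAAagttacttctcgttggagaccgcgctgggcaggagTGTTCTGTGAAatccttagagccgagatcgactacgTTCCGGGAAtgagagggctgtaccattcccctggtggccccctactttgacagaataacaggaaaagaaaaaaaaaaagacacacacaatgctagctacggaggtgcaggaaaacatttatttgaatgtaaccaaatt

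**Figure D3:**
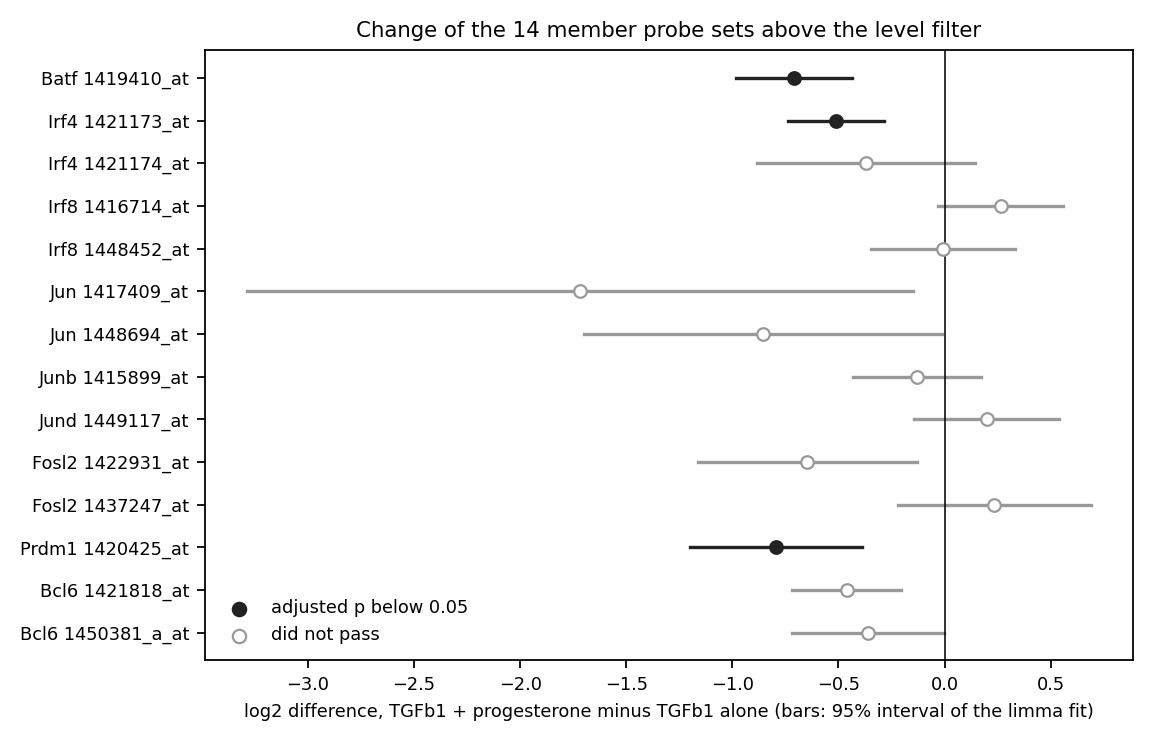
Difference in log2(signal + 16), TGFb1 plus progesterone minus TGFb1 alone, for the 14 member probe sets above the level filter, with the 95% interval of the limma fit, not adjusted for multiple testing (2 arrays per group). The filled points, Batf, the brighter Irf4 probe set and Prdm1, passed at an adjusted p below 0.05; the Jun intervals are the widest.

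The size and number of these differences moved with the scaling of the arrays. As deposited 6 of the 14 probe sets passed, all lower, against 7.12% of all probe sets (1604, of which 1314 were lower). With median centring of each array 9 passed, all lower. The brighter Bcl6 probe set passed in both (-0.80, adjusted p = 0.0465, and -0.92, adjusted p = 0.0025), as did both Jun probe sets. With median centring 24.6% of all probe sets passed and the median of all was -0.28, so part of each member's difference there is that common shift. As deposited the fit's prior degrees of freedom were infinite, so each probe set's own spread was not used, and the Jun calls there leave out the gap between the TGFb1 arrays. Batf, the brighter Irf4 probe set and Prdm1 passed under all 3 scalings.

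**Figure D4:**
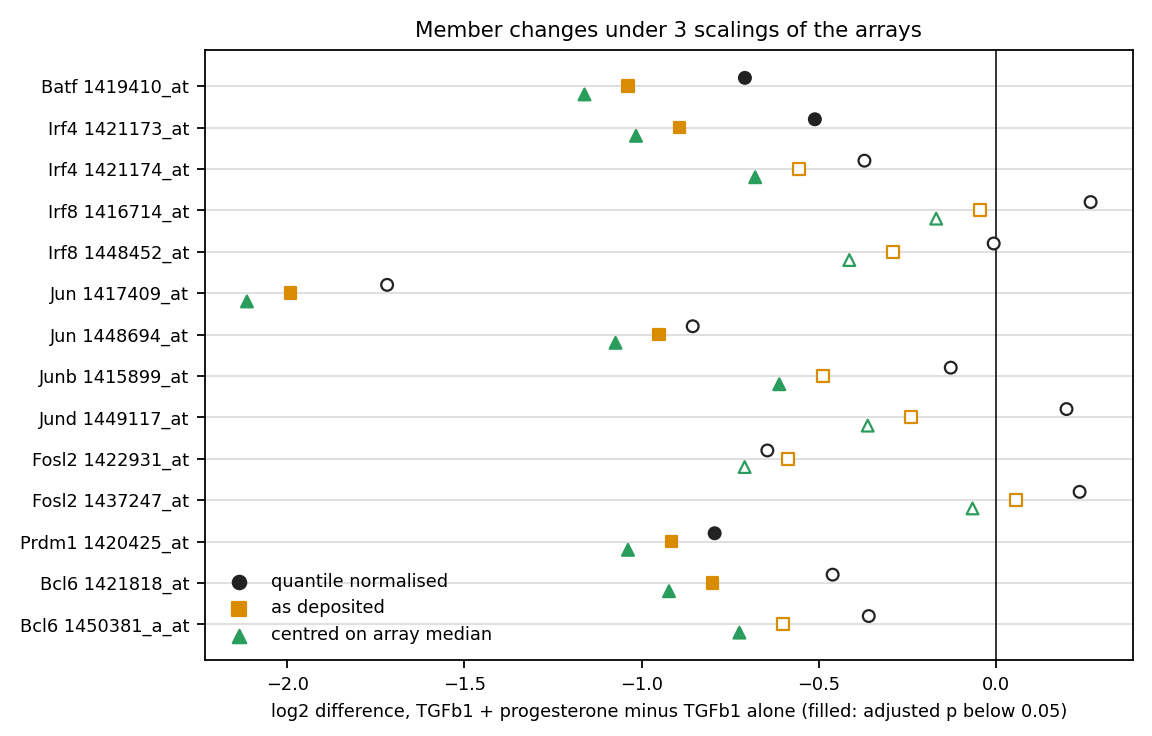
Difference in log2(signal + 16), TGFb1 plus progesterone minus TGFb1 alone, of the 14 member probe sets under quantile normalisation (circles), with the values as deposited (squares) and with median centring of each array (triangles); filled symbols passed at an adjusted p below 0.05. Batf, 1421173_at of Irf4 and Prdm1 are filled under all 3, while 1416714_at of Irf8, Jund and 1437247_at of Fosl2 lie on both sides of 0.

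Lists of related genes were counted by gene, each through its brightest probe set above the filter; by gene 4.79% of 10512 genes were called lower and 2.69% higher, with a median of 0.021. Of 15 measured genes known to depend on BATF, IRF4 or BLIMP1 in T cells, 5 fell and 1 rose, with a median of -0.18. With either progesterone array left out most or all calls of this list were lost, and fewer probe sets were then called over all as well. Without progesterone replicate 1 and 2 the list medians were -0.20 and -0.28. Without TGFb1 replicate 1 and 2 they were -0.33 and -0.16, and the number of calls in the list fell less. The costimulatory receptor gene Tnfrsf9 had 459 and 315 with TGFb1 plus progesterone, against 944 and 894 with TGFb1 alone (-0.90 ± 0.12, adjusted p = 0.00484). Ikzf2, the Helios factor of regulatory T cells, had 787 and 631, against 1461 and 1706 (-0.76 ± 0.13, adjusted p = 0.0136). Nfil3, a transcription factor gene, and Ctla4, an inhibitory receptor gene, fell by 1.04 and 0.46 (adjusted p = 0.0203 and 0.0277). The other call lower was the granzyme gene Gzmb (-1.04), and the call higher was Id2 (0.55), which encodes an inhibitor of E proteins. Gzmb and Id2 were named after their values were seen. The list mixes genes that these factors activate and repress. Il10, a known target of BLIMP1, lay under the filter, with 20.4 and 16.7 with progesterone, against 11.5 and 11.9.

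Of 10 measured follicular helper genes 1 fell, the receptor gene Slamf6 (-0.72 ± 0.14, adjusted p = 0.0227), and none rose; the regulator gene Tox (-0.49), the PD-1 gene Pdcd1 (-0.45) and the adaptor gene Sh2d1a (-0.15) did not pass. With either progesterone array left out this list lost its call, and fewer probe sets were then called over all as well. Its medians were -0.078 and -0.059 without progesterone replicate 1 and 2. The follicular helper cytokine gene Il21 lay under the filter. Of 11 genes for cofactors of BLIMP1 and BCL6, 1 fell, the histone methyltransferase gene Ezh2, with 509.97 and 405 in the TGFb1 plus progesterone arrays, against 1374 and 1108 in the TGFb1 arrays (-1.04 ± 0.11, adjusted p = 0.00234); Ezh2 is also linked to proliferation. Bcorl1 (-0.72), Tle3 (0.29) and Hdac2 (0.28) did not pass, and Tle3 was below 0 as deposited (-0.12) and with median centring (-0.24).

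No gene was called by limma among 7 other AP-1 and small MAF genes (1 at an unadjusted p below 0.05, Fos), 8 other IRF genes (2) or 7 JNK and ERK pathway kinase genes (0). Their medians were -0.023, -0.11 and -0.044. Among the IRF genes Irf5 (-0.70 ± 0.17, adjusted p = 0.0584), Irf2 (-0.34), Irf7 (0.32) and Irf1 (-0.30) had the largest statistics, and a second Irf5 probe set had the opposite sign (0.75). One dimmer Irf3 probe set of 4 was called higher (1.02, adjusted p = 0.0334), and the brightest was at 0.15. The AP-1 genes Maff (-0.88), Mafg (0.19) and Atf2 (0.073) and the kinase genes Mapk9 (0.19), Map3k1 (-0.17), Map4k1 (-0.18) and Mapk8 (0.16) did not pass. With median centring 1, 5 and 4 genes of these 3 lists were called, all lower, and as deposited 1, 1 and 0. Over all probe sets 24.6% were called with median centring (5258 of 5540 lower) and 7.12% as deposited. Of 11 T cell markers 9 were also called lower with median centring.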

How the data were processed

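RNA from 4 samples was hybridised to 1-label expression arrays. The authors deposited MAS5 signal intensity values, not on a log scale; MAS5 is named in the submitters' processing notes, without its scaling. Members and gene lists were chosen with earlier results of these data known.

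Trimmed means (2% off each end) differed by 1.43 times, above the limit of 5%, so arrays were quantile normalised and taken as log2(signal + 16). The 64 control probe sets were dropped and those with a mean above the median (24.8) kept, 22518 in all. The test was limma 3.58.1 under R 4.3.3 (lmFit, then eBayes with an intensity trend; 2 residual degrees of freedom, which 4 arrays allow), without covariates, two-sided, with Benjamini-Hochberg adjustment over all kept probe sets at 0.05.

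Symbols came from the platform annotation, updated by Entrez identifier (34754 probe sets matched) from a RefSeq table of GRCm38.p6, the source of the promoters. All member probe sets were named, and of each related list up to 4 genes by moderated statistic. Summed marker signals add each gene's normalised signal, averaged over its probe sets. List genes without a probe set of 1 symbol are not analysed here. The fit was tested on simulated data. Samples sharing a replicate number were not treated as pairs in the reported fit, and the labels give them no shared source. Their deviations correlated at 0.17 over 2 numbers, and a fit with the replicate number as a block is among the alternatives. The alternatives are in the closing section.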

Additional observations from a re-analysis of the deposited data

How the results depend on the processing

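Of the 14 member probe sets, 3 were called in the reported fit. The count was 6 with the values as deposited, 9 with median centring of each array, 1 of 16 with no level filter (Batf), 0 with no intensity trend (limma; 5 at an unadjusted p below 0.05) and 6 with the replicate number as a block (replicate block, without a shared source in the labels). It ran from 0 to 4 when an array was left out and was 3 or 4 with pseudocounts of 1 and 64, robust eBayes, no _x_at or _s_at probe sets, and an adjusted p threshold of 0.1. In the upper 25% by level it was 3 of 11, where Bcl6 passed and Prdm1 was not tested, and with 1 probe set per gene it was 4 of 9. The genes that depend on BATF, IRF4 or BLIMP1 (5 lower and 1 higher of 15) gave 1 and 0 with no filter and none with no trend, and 5 and 0 as deposited and 8 and 0 centred; the follicular helper list (1 lower) gave none with no filter or no trend, 2 as deposited and 6 centred, and the cofactor list (1 lower) gave 4 centred. Over all probe sets the count was 1383 of 22518 (6.14%). It was 5540 with median centring (24.6%, 282 higher and 5258 lower) and 1604 as deposited (7.12%, 290 and 1314). The number tested changed in 3 alternatives. With no filter 539 of 45037 were called (1.2%), and in the upper 25% by level 943 of 11259 (8.38%). With 1 probe set per gene 879 of 10512 were called (8.36%). The count was 481 with no trend (2.14%), 3122 with the block (13.9%) and 2228 at the threshold of 0.1 (9.89%). Signs turned for Irf8 1416714_at (-0.047 as deposited, -0.17 centred), Jund 1449117_at (-0.24 and -0.36, and -0.027 to 0.43 with an array left out), Fosl2 1437247_at (-0.067 centred) and Irf8 1448452_at (-0.12 to 0.11 with an array left out, 0.069 without TGFb1 replicate 1). Batf, 1421173_at of Irf4 and Prdm1 kept their sign under every alternative run, and Batf was called in 13 of 16, Irf4 in 12 of 16 and Prdm1 in 10 of 15. The brighter Bcl6 probe set was called in 8 of 16, among them the block (limma adjusted p = 0.0104). Also among them was the threshold of 0.1, which left its adjusted p at 0.0529. The Jun probe sets were called with the block at limma adjusted p = 0.0204 and 0.039. Apart from scaling, the cause of these moves was not tested. Fits that drop an array take the array left in that group to vary as the other group does. Dim probe sets (Batf3, 1440265_at of Jund) allow no statement.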
